A study of Mus musculus with 6 samples.

Results

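The genes described here encode the constitutive proteasome, its regulatory particles and the factors that assemble them, measured by RNA-seq in hematopoietic stem and progenitor cells (HSPCs) of wildtype and Mirc11-/- mice. They were taken by symbol, as Psma, Psmb, Psmc, Psmd, Psme, Psmf or Psmg followed by a number, without the interferon-inducible subunits Psmb8, Psmb9 and Psmb10 and with a mean of at least 1 over the 6 libraries. The pattern matched 50 of the 23997 symbols in the table, 47 remained without the inducible subunits, and 46 passed the minimum, among the 15662 genes that passed it in all. Psmb11, the thymus-specific catalytic subunit, was the only one under the minimum, with normalized counts of 0.986, 2.98 and 1.01 in the wildtype libraries and 0 in each Mirc11-/- library. Its mean over the 6 libraries was 0.830, and the lowest mean above the minimum was that of Psma8, at 89.4. By role, 15 of the 46 belong to the 20S core, 17 to the 19S cap, 7 are assembly chaperones, 5 are activators and 1, Psmf1, encodes the regulator PI31. Psmc3ip matched by symbol alone: it encodes a partner of meiotic recombinases that was named for its binding to Psmc3, and it is no proteasome subunit.

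The proteasome degrades proteins that carry ubiquitin chains. Its 20S core is a barrel of alpha subunit rings, which gate the entry, and beta subunit rings, of which Psmb5, Psmb6 and Psmb7 carry the catalytic sites. The 19S cap binds ubiquitin chains, removes them and feeds the unfolded substrate into the core, and other activators (PA28 and PA200) can dock in its place. In cells exposed to interferon, Psmb8, Psmb9 and Psmb10 replace the catalytic subunits and form the immunoproteasome, which serves antigen presentation.

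HSPCs were sorted as Lin-Sca1+Kit+ (LSK) cells from bone marrow of C57BL/6 mice aged 6 to 8 weeks, in normal hematopoiesis. The 3 Wildtype and 3 Mirc11-/- libraries were each made from the pooled cells of several mice, so the spread between libraries is one between pools. Mirc11-/- mice carry a germline deletion of the miR-23a, miR-27a and miR-24-2 cluster, so any cell of these mice lacks it. Each value is a gene's reads scaled by a factor of its library, here called a normalized count, and takes no account of gene length. The 3 wildtype libraries held between 15772826 and 16250826 reads in genes (median 16129061), and the 3 Mirc11-/- libraries between 15029379 and 17051541 (median 15265923). The wildtype libraries together held 51 reads on Mir23a, 54 on Mir27a and 73 on Mir24-2, and the Mirc11-/- libraries held 0, where 0 reads over the group allow up to 3. Kit and Ly6a, which encode the c-Kit and Sca-1 of the gate, were present in every library, Kit at 6644 to 9950 and Ly6a at 374 to 683 normalized counts.

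The libraries of a genotype differed in cell markers. The median of 16 erythroid marker genes, relative to the wildtype mean on the log2 scale, was 0.46, -0.11 and -0.30 in the wildtype libraries and 1.5, 1.38 and -0.18 in the Mirc11-/- libraries 1, 2 and 3. Mirc11-/- library 3 thus lay within the wildtype range for these markers and apart from the other two of its genotype. Summed normalized counts of the erythroid list were 21512 to 30403 in wildtype and 22524 to 54182 in Mirc11-/- libraries, and those of the 10 LSK markers 38524 to 45297 and 25726 to 44957. None of the 16 erythroid and 10 LSK markers was at 0 in all libraries. The antibodies that removed mature lineages from the sort bound B220, CD11b, CD3ε, GR1 and Terr119, of which Terr119 marks maturing erythroid cells. In bulk RNA, fewer cells of a type and less RNA per cell cannot be told apart.

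The sequences that link these genes to the deletion are the 3 mature miRNAs and their possible sites. The miRNAs, from RefSeq on GRCm38.p6, are given with the seed (bases 2 to 8) in capitals, and all lie on the plus strand of chromosome 8, miR-23a-3p at chr8:84208563-84208583, miR-27a-3p at chr8:84208727-84208747 and miR-24-3p at chr8:84208875-84208896. The 3 seeds differ from one another.
miR-23a-3p: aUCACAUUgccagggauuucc
miR-27a-3p: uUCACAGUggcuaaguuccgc
miR-24-3p: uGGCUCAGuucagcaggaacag

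A site is a match to the reverse complement of a seed in the longest annotated 3′ UTR of the gene (GENCODE M21, GRCm38), as 7 bases or, with an A after them, as 8. Of the 46 genes, 6 held at least 1 site (13.0%), against 39.7% of the 13616 tested genes with a UTR. The UTRs of the proteasome genes were short, with a median of 298 bases against 1108. The sites of the 6 genes are given with the bases that match in capitals.
Psma1 with miR-27a-3p (chr7:114264621-114264642, minus strand): taaagacaACTGTGAAataaaa
Psma2 with miR-24-3p (chr13:14626685-14626705, plus strand): tttagctgCTGAGCCttaccc
Psma3 with miR-23a-3p (chr12:70995333-70995353, plus strand): ttgtggaaAATGTGAcagcat
Psma3 with miR-24-3p (chr12:70995207-70995227, plus strand): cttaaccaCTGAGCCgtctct
Psmc3 with miR-24-3p (chr2:91066145-91066165, plus strand): aggcagcgCTGAGCCtctgct
Psmd5 with miR-24-3p (chr2:34850913-34850934, minus strand): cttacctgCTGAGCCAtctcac
Psme3 with miR-24-3p (chr11:101322404-101322424, plus strand): atcccgctCTGAGCCtgactg
Psme3 with miR-24-3p (chr11:101323374-101323394, plus strand): ccttccagCTGAGCCcctccc
Psma1 and Psmd5 held the sites of 8 bases. Psmb11, under the minimum count, also held a site for miR-24-3p. A match is a description of the sequence and says nothing of whether the miRNA binds there.

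Promoters, taken here as 250 bases before to 50 bases after the start in RefSeq (GRCm38.p6), were given for 38 of the 46 genes. Both strands were searched for CCAAT (the NF-Y box), TGACNNNGC (the core of the antioxidant response element), CCGGAAG (an ETS family motif) and the motif of nuclear respiratory factor 1, each on its own, so that matches may overlap. CCGGAAG stood in 15 of the 38 (39.5%), against 18.0% of 11290 tested genes with a promoter and 9.93% of 27025 genes with one. The nuclear respiratory factor 1 motif stood in 18.4% against 10.3% of the tested genes, CCAAT in 34.2% against 42.3%, and TGACNNNGC in 15.8% against 17.0%. The 6 genes with TGACNNNGC were Psmb5, Psmb6, Psmc6, Psmd9, Psmd12 and Psme4. In the 4 promoters printed, capitals mark these motifs. They are shown for a catalytic subunit (Psmb5), for the genes whose values stood furthest from 0 in the chaperones (Psmd9 and Psmg4) and for the lid subunit with the smallest p (Psmd11).
Psmb5 (chr14:54617946-54618245, minus strand): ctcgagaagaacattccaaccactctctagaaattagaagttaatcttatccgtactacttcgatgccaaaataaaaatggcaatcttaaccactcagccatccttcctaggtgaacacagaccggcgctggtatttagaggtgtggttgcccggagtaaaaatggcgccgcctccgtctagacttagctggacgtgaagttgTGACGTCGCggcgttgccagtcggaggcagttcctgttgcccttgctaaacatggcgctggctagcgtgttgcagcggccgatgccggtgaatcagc
Psmd9 (chr5:123227940-123228239, plus strand): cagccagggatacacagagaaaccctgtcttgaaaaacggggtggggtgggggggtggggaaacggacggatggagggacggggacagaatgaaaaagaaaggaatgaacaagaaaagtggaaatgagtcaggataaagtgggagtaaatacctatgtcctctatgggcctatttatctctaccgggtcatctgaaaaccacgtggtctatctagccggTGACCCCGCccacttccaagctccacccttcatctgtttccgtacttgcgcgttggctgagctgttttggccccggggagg
Psmd11 (chr11:80428365-80428664, plus strand): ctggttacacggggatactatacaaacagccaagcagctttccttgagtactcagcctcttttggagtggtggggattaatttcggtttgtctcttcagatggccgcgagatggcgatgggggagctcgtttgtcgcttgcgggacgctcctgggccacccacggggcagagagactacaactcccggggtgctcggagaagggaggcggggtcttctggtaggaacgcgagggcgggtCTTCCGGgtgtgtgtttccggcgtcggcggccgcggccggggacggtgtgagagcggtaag
Psmg4 (chr13:34162714-34163013, plus strand): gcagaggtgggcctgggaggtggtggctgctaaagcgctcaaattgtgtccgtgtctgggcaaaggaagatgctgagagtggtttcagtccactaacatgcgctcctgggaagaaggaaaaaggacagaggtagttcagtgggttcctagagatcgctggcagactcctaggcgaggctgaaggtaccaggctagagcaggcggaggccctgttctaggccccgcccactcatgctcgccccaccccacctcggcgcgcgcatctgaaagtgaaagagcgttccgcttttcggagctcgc
TGACNNNGC began 47 bases before the start in Psmb5 and 31 in Psmd9, both on the strand of the gene. CCGGAAG lay 11 bases before the start of Psmd11 on the other strand, where it reads CTTCCGG. The Psmg4 window held none of these letters, which says only that they are not in this window.

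In the comparison of Mirc11-/- with wildtype, 0 of the 46 proteasome genes passed an adjusted p of 0.05 by limma, in either direction, where 0.0319% of all genes tested did. At an unadjusted p under 0.05 there were also 0 of the 46, against 8.24% of all genes, and the count tests on the recovered reads did not call any either. EdgeR called 0 of the 46 against 0.0255% of all genes, with 1 higher at an unadjusted p under 0.05 against 4.65%, and DESeq2 called 0 against 0.779%, with 1 higher against 4.14%. The log2 fold change, Mirc11-/- minus wildtype, was above 0 for 38 and below 0 for 8, where 50.5% of all genes were above 0. Its median was 0.06 over the 46 and 0.0025 over all genes. The single values ran from -0.27 for Psme2b to 0.36 for Psmd9. The 95% interval lay within a 1.5-fold change for 44 of the 46, against 54.6% of all genes. Psmd9 and Psme2b were the exceptions (chosen after their values were seen), with an upper bound of 0.73 and a lower bound of -0.73. Among the 44, the interval of Psma8 was wide, from -0.48 to 0.54. All genes include those down to a mean of 1, while the lowest mean of the 46 was 89.4. For 1 of the 46, Psmg4, the groups did not overlap: it was lower in Mirc11-/-, while 12.9% of all genes did not overlap.

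The direction of the median rested on single libraries. Without wildtype library 3 the median log2 fold change was -0.01 and 21 of the 46 were above 0, and without Mirc11-/- library 1 they were -0.01 and 21. Without Mirc11-/- library 3, which had the erythroid marker levels of the wildtype, the median was 0.16, 43 were above 0, and 1 gene, Psmd9, was called higher, where 1.63% of all genes were. With libraries weighted by their spread (array weights, a fit that did not reach convergence), 7 of the 46 were called higher and 2 lower, where 18.3% and 17.9% of all genes were.

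**Figure D1:**
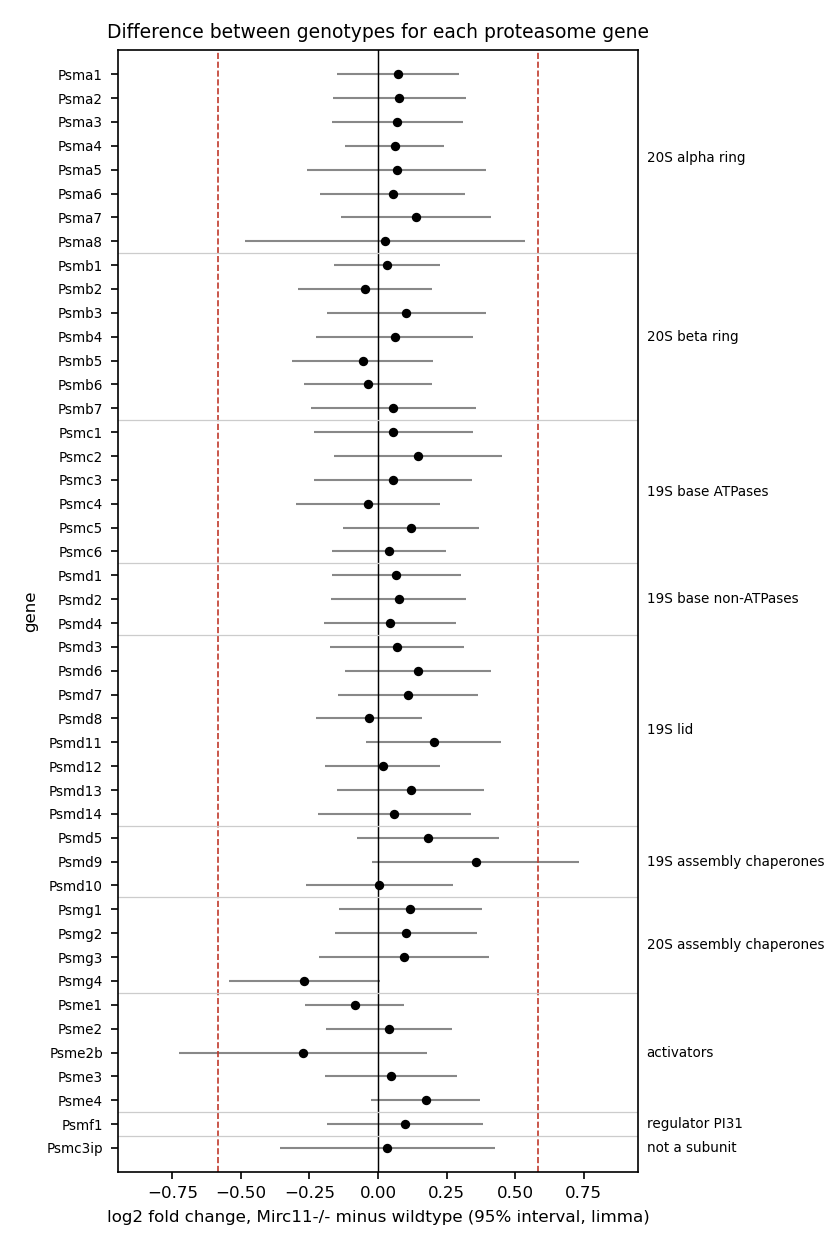
Log2 fold change, Mirc11-/- minus wildtype (x axis), of each of the 46 proteasome genes (y axis, grouped by role). Points are limma estimates and bars their 95% intervals over 3 libraries per genotype, dashed lines mark a 1.5-fold change, and the bars of 44 genes stay within them, the exceptions being Psmd9 and Psme2b.

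The proteasome genes varied together between the libraries of one genotype. Their median, relative to the wildtype mean on the log2 scale, was 0.12, 0.03 and -0.16 in the wildtype libraries and 0.21, 0.11 and -0.12 in the Mirc11-/- libraries 1, 2 and 3. Library 3 was the lowest of the wildtype libraries for 42 of the 46 and the lowest of the Mirc11-/- libraries for 44 of the 46. Both held for 40 of the 46 (87.0%), against 21.1% of all genes. The number 3 ties no pool of one genotype to a pool of the other in the labels.

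The share of reads moved the same way. Together the 46 genes took 0.580% of the reads in genes in wildtype library 1 (95% Wilson interval 0.577% to 0.584%), 0.548% (0.545% to 0.552%) in library 2 and 0.491% (0.487% to 0.494%) in library 3. In Mirc11-/- they took 0.614% (0.611% to 0.618%), 0.591% (0.587% to 0.595%) and 0.519% (0.515% to 0.522%). These intervals cover counting error only. The spread between libraries of one genotype was wider than these intervals, and the ranges of the genotypes overlapped.

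Some lists of cell markers moved with this pattern and others did not. The LSK markers were highest in library 3 of each genotype, with medians of -0.10, -0.09 and 0.22 in wildtype and -0.57, -0.18 and 0.16 in Mirc11-/-. The erythroid markers were lowest in library 3 of each genotype. So were the 5 monocyte and macrophage markers in the table, with medians of -0.10, 0.33 and -0.22 in wildtype and 0.44, -0.18 and -0.57 in Mirc11-/-. The 12 neutrophil markers were lowest there by their summed normalized counts, at 203620, 208540 and 171980 in wildtype and 242220, 191180 and 147690 in Mirc11-/-, but not by their medians, at 0.21, -0.21 and -0.13 and at 0.27, 0.73 and 0.57. By summed normalized counts the T cell, megakaryocyte and stroma or endothelium markers were highest in library 3 of each genotype. The B cell markers were lowest there in wildtype, at 577, 546 and 526, and highest there in Mirc11-/-, at 454, 590 and 746. The mast cell and basophil markers went the other way, at 553, 502 and 714 and at 1098, 691 and 585. The part of any of these cells in the level of the proteasome genes was not tested.

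**Figure D2:**
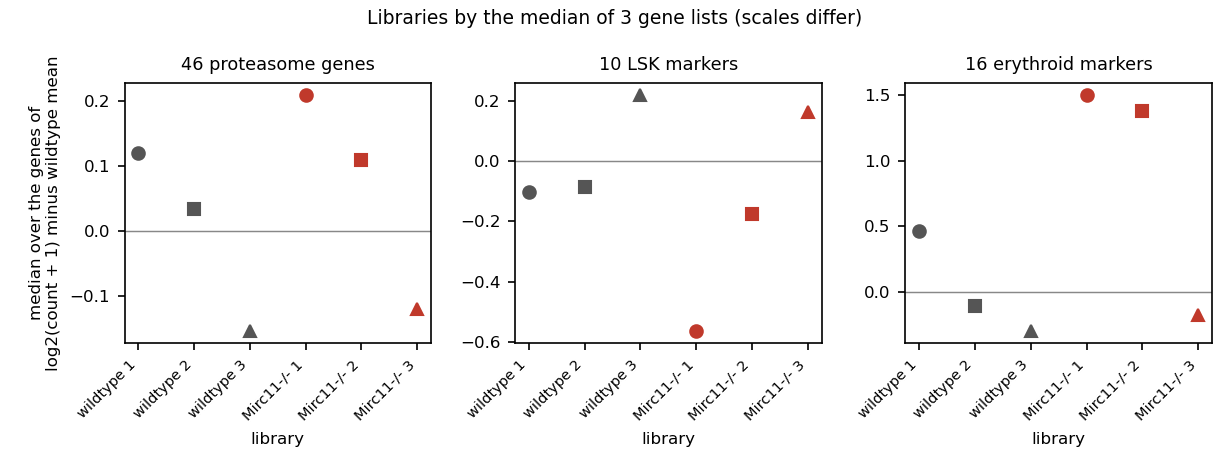
Median of log2(normalized count + 1) minus the wildtype mean (y axis, a scale of its own in each panel) in each library (x axis) for the 46 proteasome genes, the LSK markers and the erythroid markers. The proteasome genes and the erythroid markers were lowest in library 3 of each genotype (-0.16 and -0.12 for the proteasome genes), where the LSK markers were highest.

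**Figure D3:**
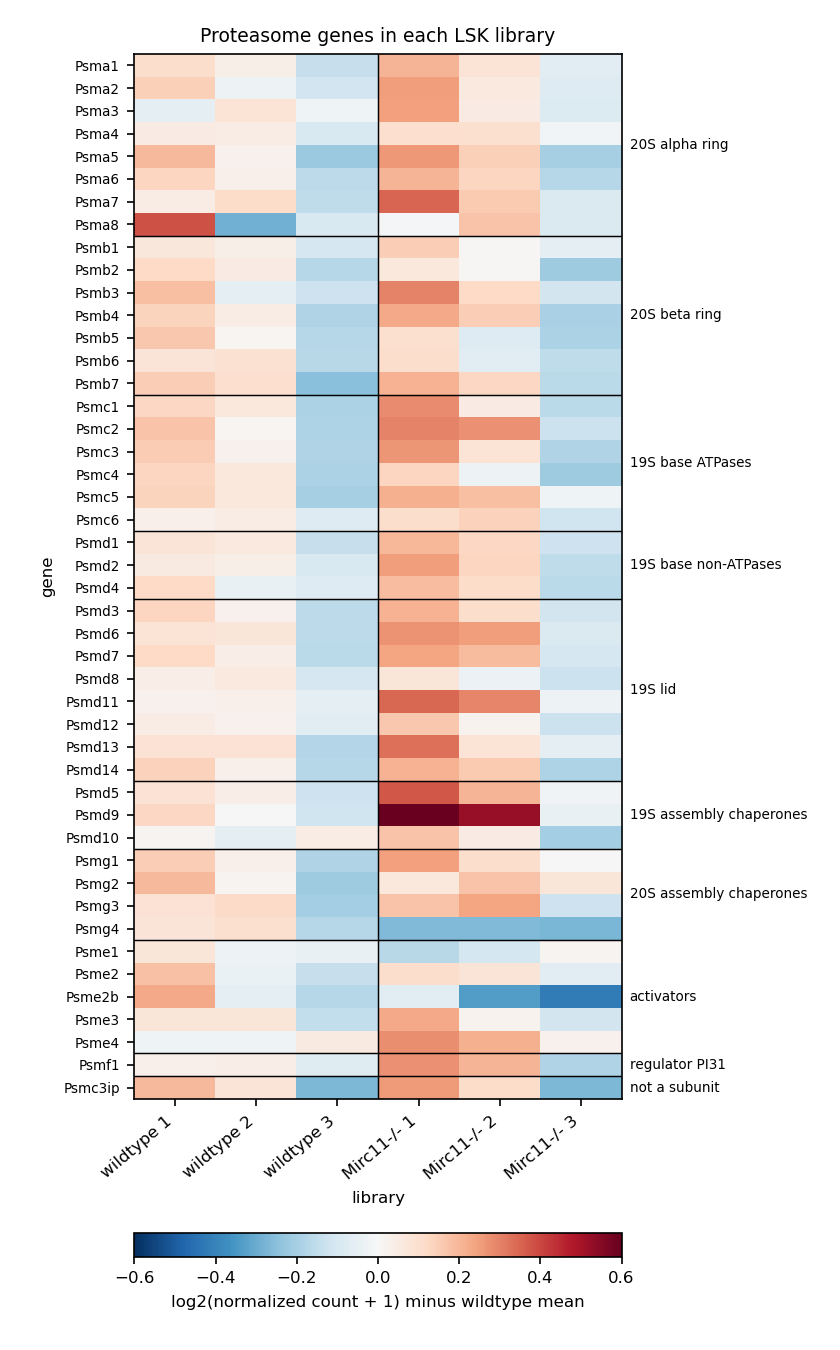
Log2(normalized count + 1) minus the wildtype mean (color) of each proteasome gene (y axis, grouped by role) in each library (x axis). Library 3 of either genotype is blue for most genes, Psmg4 is blue in the 3 Mirc11-/- libraries, and Psmd9 is dark red in Mirc11-/- libraries 1 and 2.

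The alpha ring, which forms the gate of the 20S core, had 8 genes, and all 8 log2 fold changes were above 0, from 0.03 to 0.14, with a median of 0.07 and 0 called. Psma7 had the smallest p. Its normalized counts were 2802, 2928 and 2439 in wildtype and 3463, 3023 and 2558 in Mirc11-/- libraries. The highest values came from Mirc11-/- libraries 1 and 2, while library 3 fell among the wildtype libraries (log2 fold change 0.14, SE 0.12, adjusted p = 0.764 by limma). Psma4 was at 2062, 2059 and 1871 in wildtype and 2142, 2133 and 1973 in Mirc11-/- (0.06, SE 0.08, adjusted p = 0.851 by limma). Psma1, with the 8-base site for miR-27a-3p, was at 2943, 2804 and 2492 against 3154, 2901 and 2612 (0.07, SE 0.10, adjusted p = 0.856 by limma). In both genes the genotypes overlapped. Psma6 was at 2615, 2448 and 2144 against 2756, 2617 and 2127 (0.05, SE 0.12, adjusted p = 0.925 by limma).

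Psma8, the alpha subunit of the testis that takes the place of Psma7, was the least abundant of the 46 genes, with normalized counts of 114, 71.5 and 82.1 in wildtype and 87.0, 98.7 and 82.5 in Mirc11-/-. Its wildtype range enclosed all Mirc11-/- values. Per kilobase of the longest transcript, Psma7 stood 38.6-fold above Psma8 in wildtype and 42.7-fold in Mirc11-/- HSPCs. The 2 transcripts are 74.3% identical over 676 aligned bases and shared no stretch of 36 bases. The fewest reads of any of the 46 genes in a library, 72, were those of Psma8.

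The beta ring had 7 genes, with 4 log2 fold changes above 0 and 3 below, from -0.06 to 0.10, and 0 called. Psmb5 carries the chymotrypsin-like site, Psmb6 the caspase-like site and Psmb7 the trypsin-like site. Psmb5 was at 1351, 1221 and 1073 in wildtype and 1293, 1148 and 1061 in Mirc11-/- libraries (-0.06, SE 0.11, adjusted p = 0.913 by limma). Psmb6 was at 1943, 1964 and 1639 against 1983, 1757 and 1660 (-0.04, SE 0.10, adjusted p = 0.942 by limma). Psmb7 was at 2572, 2484 and 1950 against 2681, 2522 and 2069 (0.06, SE 0.13, adjusted p = 0.930 by limma). All 3 catalytic genes overlapped between the genotypes, with the lowest value of each genotype in library 3. Psmb3 had the smallest p of the ring, at 1028, 871 and 830 against 1115, 984 and 840 (0.10, SE 0.13, adjusted p = 0.835 by limma). Psmb4, a structural subunit, was the highest per kilobase, at 3872, 3632 and 3111 against 4127, 3900 and 3081 (0.06, SE 0.13, adjusted p = 0.919 by limma).

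The 19S base holds the ring of 6 ATPases that unfolds substrates, and 5 of their 6 log2 fold changes were above 0, from -0.04 to 0.15, with 0 called. Psmc2 was at 2297, 2055 and 1794 in wildtype and 2506, 2464 and 1862 in Mirc11-/- libraries (0.15, SE 0.14, adjusted p = 0.781 by limma). Mirc11-/- libraries 1 and 2 were above all wildtype libraries for Psmc2, and library 3 was not. Psmc5 was at 1909, 1816 and 1513 against 2013, 1967 and 1705 (0.12, SE 0.11, adjusted p = 0.778 by limma). Psmc6 was at 1930, 1951 and 1789 against 2031, 2076 and 1740 (0.04, SE 0.09, adjusted p = 0.928 by limma). Psmc3, the ATPase with a miR-24-3p site, was at 3806, 3487 and 3020 against 4107, 3625 and 3023 (0.06, SE 0.13, adjusted p = 0.929 by limma). Except for library 3, Psmc5 and Psmc6 also stood higher in each Mirc11-/- library than in any wildtype library. The 3 scaffold and ubiquitin-binding subunits of the base, Psmd1, Psmd2 and Psmd4, had log2 fold changes of 0.07, 0.08 and 0.04. Psmd2 reached the highest mean of the 46 genes, at 5246, 5169 and 4739 in wildtype and 6009, 5512 and 4540 in Mirc11-/- (SE 0.11, adjusted p = 0.865 by limma). The scaffold Psmd1 was at 4025, 3966 and 3468 against 4372, 4155 and 3500 (SE 0.10, adjusted p = 0.878 by limma). The ubiquitin receptor Psmd4 was at 2223, 1983 and 1938 against 2325, 2204 and 1827 (SE 0.11, adjusted p = 0.933 by limma). In each of these 3 genes the lowest value was that of library 3 within its genotype, and the genotypes overlapped.

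The 19S lid, which holds the deubiquitinase Psmd14 on a horseshoe of scaffold subunits, had 8 genes, 7 above 0 and 1 below, from -0.03 to 0.20, with 0 called. Psmd11, a lid scaffold subunit, was at 1190, 1197 and 1126 in wildtype and 1486, 1435 and 1147 in Mirc11-/- libraries. The wildtype libraries lay close together, Mirc11-/- libraries 1 and 2 above them and library 3 among them (0.20, SE 0.11, adjusted p = 0.633 by limma). When Mirc11-/- library 3 was left out, the log2 fold change was 0.32, with an adjusted p of 0.0767 by limma. A larger estimate follows from leaving out the Mirc11-/- library that lay among the wildtype libraries. The lid subunit Psmd6 was at 1701, 1694 and 1444 against 1941, 1915 and 1512 (0.14, SE 0.12, adjusted p = 0.748 by limma). Psmd13, a further lid subunit, was at 2129, 2135 and 1779 against 2526, 2124 and 1932 (0.12, SE 0.12, adjusted p = 0.794 by limma). Psmd7, the partner of Psmd14, was at 3044, 2879 and 2500 against 3299, 3187 and 2611 (0.11, SE 0.11, adjusted p = 0.805 by limma). The genotypes overlapped for all 8 lid genes. Psmd7 is on chromosome 8 (107580381 to 107588464, minus strand, GRCm38), 23.4 Mb from the deleted cluster.

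Apart from Psme2b, the differences furthest from 0 were those of Psmd9 and Psmg4, which are assembly chaperones. These bind parts of the particle while it forms and leave when it is complete. Psmd9, a chaperone of the 19S base (chromosome 5, 123169413 to 123250131, plus strand, GRCm38), was at 676, 620 and 571 in wildtype and 936, 893 and 602 in Mirc11-/- libraries. Mirc11-/- libraries 1 and 2 were above all wildtype libraries, and library 3 lay among them (0.36, SE 0.17, adjusted p = 0.610 by limma). When Mirc11-/- library 3 was left out, the log2 fold change was 0.56, with an adjusted p of 0.0315 by limma. This fit drops the only Mirc11-/- library that was not above the wildtype libraries, so its p is no separate support. Gm26745, a lincRNA on the other strand, covers 25.5% of the exon bases of Psmd9. Since the strand setting of the counting is not given in the sources used here, reads of the 2 genes cannot be told apart within these shared bases. Psmd5, another base chaperone and the gene with the 8-base site for miR-24-3p, was at 1290, 1247 and 1113 against 1570, 1397 and 1196 (0.18, SE 0.11, adjusted p = 0.668 by limma). Psmd10, the base chaperone also called gankyrin, was at 548, 520 and 558 against 611, 561 and 470 (0.01, SE 0.12, adjusted p = 0.995 by limma).

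The 4 chaperones of the 20S core, Psmg1 to Psmg4, build the alpha ring in 2 pairs. Psmg4, the partner of Psmg3 (chromosome 13, 34162964 to 34178173, plus strand, GRCm38), was at 368, 372 and 309 in wildtype and 289, 290 and 288 in Mirc11-/- libraries. Every Mirc11-/- library was below every wildtype library, where 6.53% of all genes were lower without overlap. The log2 fold change was -0.27 (SE 0.12, adjusted p = 0.60 by limma, the smallest of the 46), and it was -0.27 without Mirc11-/- library 3 too. Psmg3 was at 509, 518 and 415 against 538, 564 and 439 (0.09, SE 0.14, adjusted p = 0.868 by limma). Its partner Psmg4 and Psmg3 thus had estimates of opposite sign, and the difference between them was not tested. Psmg1 was at 760, 702 and 606 against 814, 738 and 687 (0.12, SE 0.11, adjusted p = 0.792 by limma), and its partner Psmg2 at 884, 783 and 668 against 808, 871 and 813 (0.10, SE 0.11, adjusted p = 0.817 by limma). Both overlapped between the genotypes.

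The activators dock on the ends of the 20S core without ATP. Psme1 and Psme2 form PA28 alpha-beta, which interferon induces, Psme3 forms the nuclear PA28 gamma, and Psme4 is PA200. Psme4 was at 1733, 1734 and 1829 in wildtype and 2142, 2048 and 1799 in Mirc11-/- libraries. As for other genes, only Mirc11-/- libraries 1 and 2 were above the wildtype range (0.17, SE 0.09, adjusted p = 0.623 by limma). Psme1 was at 4116, 3835 and 3792 against 3488, 3636 and 3956 (-0.08, SE 0.08, adjusted p = 0.785 by limma). For Psme1, Mirc11-/- libraries 1 and 2 were below all wildtype libraries and library 3 was within their range. Psme2 was at 1585, 1365 and 1274 against 1507, 1479 and 1342 (0.04, SE 0.10, adjusted p = 0.937 by limma). Psme3 was at 4185, 4190 and 3590 against 4662, 4039 and 3691 (0.05, SE 0.11, adjusted p = 0.928 by limma). Psme2b, a single-exon copy of Psme2, was at 123, 101 and 93.2 against 100, 83.1 and 78.5 (-0.27, SE 0.20, adjusted p = 0.717 by limma). Its transcript is 99.4% identical to that of Psme2 over 794 aligned bases, so the split of reads between the 2 genes is uncertain. Psmf1, the inhibitor and regulator PI31, was at 856, 861 and 795 against 1011, 966 and 739 (0.10, SE 0.13, adjusted p = 0.845 by limma). Psmc3ip was at 436, 401 and 315 against 455, 411 and 316 (0.03, SE 0.17, adjusted p = 0.974 by limma).

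Other genes share sequence with near copies as well. Of the 46, 9 shared at least 20% of their stretches of 36 bases with 1 other gene, namely Psme2 and Psme2b with each other, Psmb5 (58.1%), Psma5 (46.5%), Psmd2 (36.3%), Psma4 (34.4%), Psmc1 (24.4%) and Psma3 (22.4%) with unnamed gene models, and Psmc3ip (27.9%) with the overlapping Mlx. Their counts depend on how reads that match both copies were assigned. Exons of 13 of the 46 genes overlap those of another gene. Besides Psmd9 and Psmc3ip, the largest shares of exon bases were in Psmb5 (12.1%, Mir686, same strand) and Psmb7 (11.8%, Nek6, other strand). Psmg3 (9.68%, Gm26938, same strand) and Psmc3 (8.25%, Slc39a13, other strand) followed.

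The level of each gene was compared per kilobase of its longest annotated transcript, in wildtype HSPCs. The 31 subunits of core and cap, without Psma8, had a median of 1227 normalized counts per kilobase. Psmb4 was the highest at 2991 ± 329 and Psma3 the lowest at 289 ± 14.7 (SD, n = 3), a 10.4-fold range. In the alpha ring Psma6 (2306 ± 229) and Psma1 (2286 ± 192) did not differ beyond their spread. The medians by role were 1284 in the alpha ring, 1351 in the beta ring, 1180 for the ATPases, 1090 in the lid, 614 for the core chaperones and 277 for the base chaperones. In the lid the range was from Psmd11 at 394 ± 13.2 to Psmd7 at 1776 ± 177, and in the ATPases from Psmc2 at 591 ± 72.6 to Psmc3 at 1890 ± 217 (SD, n = 3). These levels depend on the transcript length: with the median length of a gene's transcripts the median of the 31 was 2061, and the extremes were Psmc2 and Psmd2. The order of the medians by role was not kept with that length either. The base chaperones Psmd5, Psmd9 and Psmd10 were then at 1103, 805 and 385, and the core chaperones Psmg1 to Psmg4 at 878, 735, 544 and 680.

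The 3 catalytic subunits, which the core holds in equal number, had unequal transcript levels per kilobase in wildtype, at 1914 ± 188 for Psmb6, 1351 ± 155 for Psmb5 and 820 ± 118 for Psmb7 (SD, n = 3). With the median transcript length the order was the same, at 2512, 1598 and 1165. The activators Psme1 (1971 ± 88.7), Psme3 (1497 ± 130) and Psme2 (1463 ± 166) had levels like those of the core subunits, and Psme4 was lower at 272 ± 8.52 (SD, n = 3). Psme3 and Psme2 did not differ beyond their spread, and the order of the activators was not the same with the median transcript length.

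**Figure D4:**
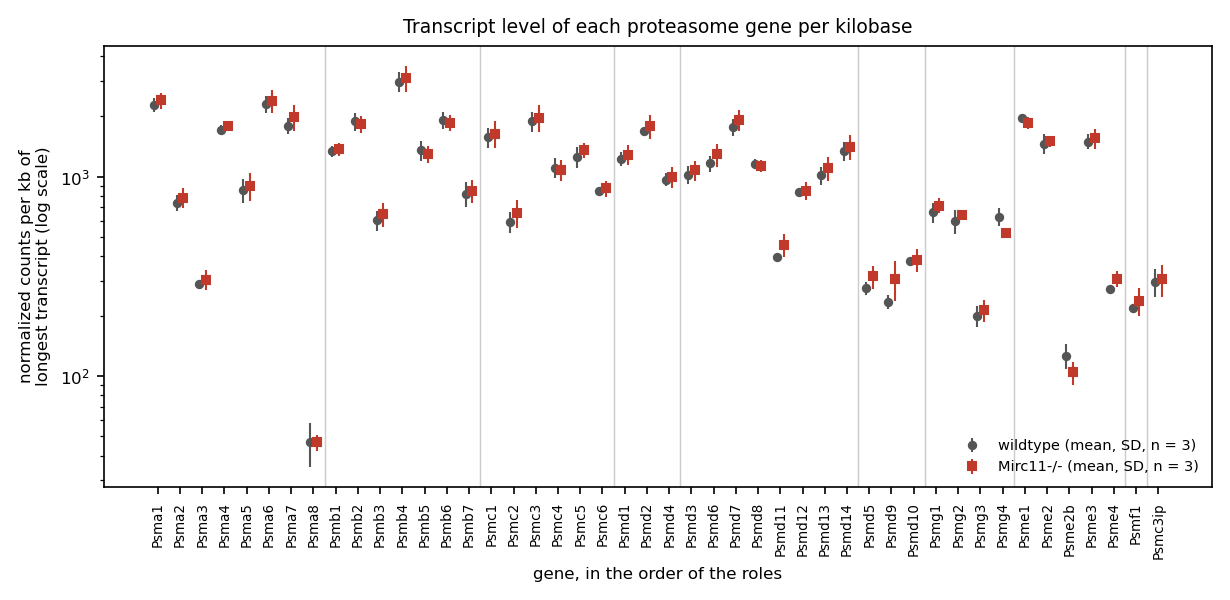
Normalized counts per kilobase of the longest transcript (y axis, log scale) of the 46 proteasome genes (x axis, in the order of their roles, vertical lines between roles) in wildtype and Mirc11-/- HSPCs. Points are means and bars SDs over 3 libraries, Psma8 is the lowest at 46.6 in either genotype and Psmb4 the highest at 2991 in wildtype and 3130 in Mirc11-/- HSPCs.

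Each catalytic subunit has an inducible counterpart, and the ratio of the 2, taken within a library from normalized counts plus 1, hardly depends on the scaling of that library. In wildtype HSPCs the inducible form was above the constitutive one per kilobase for Psmb8 (2514 ± 162, counterpart of Psmb5) and Psmb10 (1209 ± 93.7, counterpart of Psmb7), and below it for Psmb9 (608 ± 60.6, counterpart of Psmb6) (SD, n = 3). The median transcript length gave the same order in each pair, at 3885, 2012 and 2240 for Psmb8, Psmb10 and Psmb9.

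The log2 ratio of normalized counts of Psmb8 to Psmb5 was 1.89, 2.01 and 2.05 in wildtype and 1.57, 1.69 and 2.03 in Mirc11-/- libraries. That of Psmb9 to Psmb6 was -0.05, -0.10 and -0.08 against -0.53, -0.39 and 0.07. That of Psmb10 to Psmb7 was -0.61, -0.61 and -0.43 against -0.95, -0.85 and -0.45. In all 3 pairs Mirc11-/- libraries 1 and 2 were below every wildtype library and library 3 was not, so the genotypes overlapped. The means differed by -0.22, -0.21 and -0.20 (exact permutation test, two-sided, p = 0.3, 0.4 and 0.3, and 0.625 each after adjustment over 5 ratios). With 3 libraries against 3 this test cannot give a p under 0.1. The ratio of Psme1 to Psme3 was -0.02, -0.13 and 0.08 against -0.42, -0.15 and 0.10, a difference of -0.13 (exact permutation p = 0.5, adjusted 0.625). Psme2 to Psme3 was at -1.40, -1.62 and -1.49 against -1.63, -1.45 and -1.46, a difference of -0.01 (exact permutation p = 0.9, adjusted 0.9). Mirc11-/- libraries 1 and 2 are those with the high erythroid marker levels, with medians of 1.5 and 1.38, although Terr119 was among the antibodies of the sort. The part of these cells in the ratios was not tested.

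**Figure D5:**
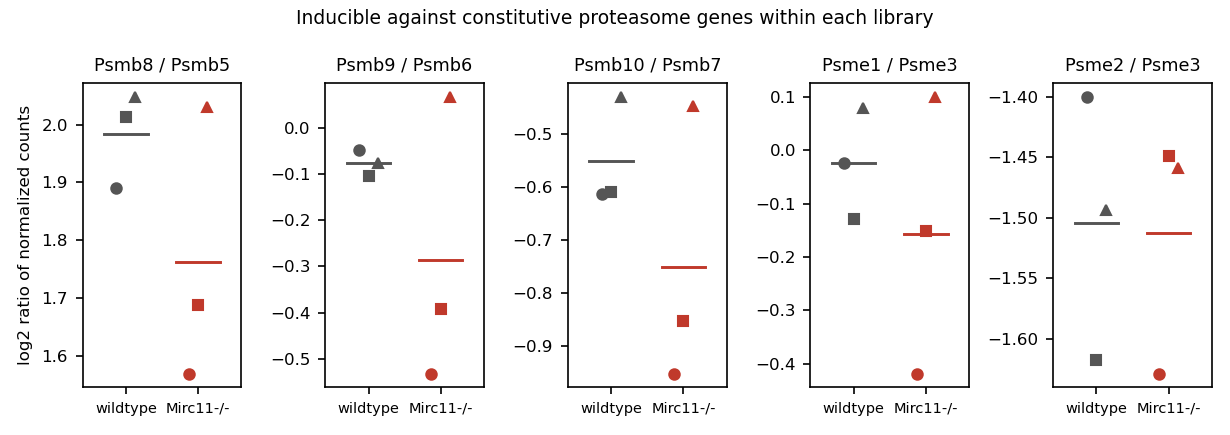
Log2 ratio of normalized counts (y axis, a scale of its own in each panel) of an inducible gene to a constitutive one for 5 pairs, in wildtype and Mirc11-/- libraries (x axis). Circles, squares and triangles are libraries 1, 2 and 3 and lines are means, and for Psmb8/Psmb5, Psmb9/Psmb6 and Psmb10/Psmb7 the circle and square of Mirc11-/- lie below all wildtype libraries.

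Genes around the proteasome were read from 5 lists, of which 0 genes were called by limma. The lists were chosen with earlier results of these data known, so their shares beside those of all genes describe them and test nothing. In the list of inducible subunits and antigen processing, 10 of 10 log2 fold changes were below 0 (median -0.26), where 49.5% of all genes were. At an unadjusted p under 0.05 by limma 3 of the 10 were lower, against 4.09% of all genes. For 3 of the 10 the genotypes stood apart, where 6.53% of all genes were lower without overlap. They were Psmb8 (-0.28, SE 0.09, adjusted p = 0.488 by limma), Tap2, a subunit of the peptide transporter (-0.34, SE 0.12, adjusted p = 0.502 by limma), and Nlrc5, the transactivator of MHC class I genes (-0.48, SE 0.14, adjusted p = 0.451 by limma). Psmb9 was at -0.25 and Psmb10 at -0.14. Of 19 proteasome-associated factors 14 were above 0 (median 0.07). Among these the core maturation factor Pomp was at 0.14 (SE 0.11, adjusted p = 0.738 by limma), the ubiquitin receptor Adrm1 at 0.08 and Akirin2, which brings proteasomes into the nucleus, at 0.19. Ubqln2, a shuttle for ubiquitinated substrates, was at -0.16 and Zfand5, which binds the 19S cap, at -0.50 (SE 0.16, adjusted p = 0.481 by limma).

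From the list of ubiquitin and its activation, the polyubiquitin gene Ubb was at 4089, 3641 and 4016 in wildtype and 2834, 3000 and 2899 in Mirc11-/- libraries. All 3 Mirc11-/- libraries were below all wildtype libraries, library 3 included (-0.43, SE 0.08, adjusted p = 0.322 by limma). When Mirc11-/- library 3 was left out, Ubb was at -0.42 with an adjusted p of 0.0373 by limma. Its unadjusted p by limma rose from 0.000381 to 0.000712, so the lower adjusted p reflects the adjustment and not a clearer difference. The adjustment is over all genes, of which 0.0319% passed with all 6 libraries and 2.75% without that library. Of 7 genes of the p97 segregase, which pulls ubiquitinated proteins out of complexes, 5 were above 0 (median 0.02), with Faf1 at -0.09, Faf2 at 0.05 and Nploc4 at 0.05. Of 11 genes of Nrf1 and Nrf2 control, 5 were above 0 (median -0.03). Nfe2l1, which encodes the factor that raises proteasome genes when proteasomes are inhibited, was at 2209, 2248 and 2267 in wildtype and 2367, 2302 and 2330 in Mirc11-/- libraries. These groups did not overlap, with a small difference (0.06, SE 0.07, adjusted p = 0.829 by limma). Nfe2l2, which encodes Nrf2, was at 0.23 (SE 0.09, adjusted p = 0.573 by limma), also without overlap, Mafg at 0.18 and Maff at -0.76 (SE 0.56). Keap1, of the same list, was lower without overlap, at -0.05 (SE 0.07, adjusted p = 0.859 by limma). Of all genes tested, 6.42% were higher and 6.53% lower without overlap.

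When Mirc11-/- library 3 was left out, 5 genes of these lists were called lower by limma, where 1.11% of all genes were. Besides Ubb they were Tap1 (-0.48, adjusted p = 0.0287), Tap2 (-0.48, adjusted p = 0.0234), Nlrc5 (-0.63, adjusted p = 0.0176) and Zfand5 (-0.65, adjusted p = 0.0391). Nfe2l2 was at 0.32 (adjusted p = 0.0680) and Psmb8 at -0.35 (adjusted p = 0.0664). For each of these genes but Ubb, library 3 was the Mirc11-/- library closest to the wildtype mean. Leaving it out therefore moves their estimates away from 0, and their p-values are no separate support. Nor is the adjusted p of Ubb, whose estimate did not move away from 0.

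The 6 proteasome genes with a site for a Mirc11 miRNA had log2 fold changes from 0.05 to 0.18, with 0 called and all overlapping between the genotypes. Psmd5 was the highest (0.18) and Psme3 the lowest (0.05). Psma2 and Psma3, which were not described above, were at 0.08 (SE 0.11) and 0.07 (SE 0.11). Of all 46 genes, with or without a site, 38 were above 0 and the median was 0.06, and the genotypes overlapped for all but 1. A difference between genes with and without a site was not tested.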

How the data were processed

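RNA was measured in sorted LSK cells from pools of mice, 3 Wildtype and 3 Mirc11-/- libraries, grouped by the submitters' genotype label. STAR, Cufflinks and the build mm10 are listed in the submitters' notes on processing, and no source used here gives versions, the annotation or the strand setting. The authors deposited a signal per gene under the name FPKM. It holds read counts scaled by a factor for each library, which does not follow the library's total of reads. Of the values, 100% were whole multiples of 1 read's worth within 0.001. They were not divided by length, and the planned test for normalized values was kept.

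The proteasome genes and related lists were chosen with earlier results of these data known. Entries that shared a symbol (2 symbols) were added up. The 15662 genes that averaged 1 or more were compared with limma 3.58.1 in R 4.3.3 on log2(value + 1), with a mean-variance trend, two-sided, Benjamini-Hochberg adjustment over all genes and a threshold of 0.05. A fold change on this scale understates that of low genes. Ratios were compared by an exact permutation test. Libraries held 15029379 to 17051541 reads in genes. The scripts were tested on simulated data. Alternatives were other pseudocounts, filters and normalizations, limma without a trend or with array weights, a replicate block, each library left out, and edgeR 4.0.16 and DESeq2 1.42.0 on the recovered reads. Genes given in full were, in each role, the 3 with the smallest p and the highest and lowest per kilobase, with the catalytic subunits, the activators, Psma8, Psmb11 and Psmc3ip, and in each related list the 3 with the smallest p and Psmb8 to Psmb10, Pomp, Adrm1 and Nfe2l1. Some genes that this rule selects are left out here. Psma3, the lowest of the 31 subunits per kilobase, and Psma2 were named for their sites. Lengths and 3′ UTRs came from GENCODE M21, promoters and miRNAs from RefSeq.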

Additional observations from a re-analysis of the deposited data

How the results depend on the processing

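No pseudocount, filter or normalization tried changed the 0 calls among the 46 genes. Array weights, which did not reach convergence, called 7 higher and 2 lower, where they called 18.3% and 17.9% of all genes. These weights put 11 and 4 below an unadjusted p of 0.05, against 23.9% and 23.2% of all genes. At that p there was 1 lower with no filter and 1 lower without a trend, and edgeR and DESeq2 each gave 1 higher. With each library left out in turn, 0 to 1 were called higher and 0 lower, 0 to 8 were higher and 0 to 1 lower at an unadjusted p under 0.05, 21 to 43 were above 0 and the median log2 fold change was -0.0107 to 0.163. The 1 call, Psmd9, came without Mirc11-/- library 3. So did the 8 before adjustment, where 9.81% of all genes were higher by the same threshold. The log2 ratios ranged from -0.36 to -0.13 (Psmb8/Psmb5), -0.39 to -0.09 (Psmb9/Psmb6), -0.35 to -0.10 (Psmb10/Psmb7), -0.26 to -0.0014 (Psme1/Psme3) and -0.0647 to 0.0505 (Psme2/Psme3, which reversed without library 1 of either genotype). The median level per kilobase moved to 2061 with the median transcript length. The cause of these shifts was not tested.

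No source ties a replicate number to a shared day or litter. The deviations of same-numbered libraries from the mean of their genotype correlated at 0.066, -0.063 and 0.097 over 15662 genes. Over the 10553 genes with a mean of at least 100 they correlated at 0.314, -0.276 and 0.340. There the values of differently numbered libraries ran from -0.47 (wildtype 3 with Mirc11-/- 1) to 0.36 (wildtype 2 with Mirc11-/- 1). Deviations within a genotype add up to 0, so these values cannot decide whether the numbers pair the libraries. With the number as a replicate block 0 were called and 3 were higher at an unadjusted p under 0.05, where 6.24% of all genes were.

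Of 35 genes named in full, 17 had a log2 fold change near 0 that reversed in sign under some alternative, by at most 0.119 beyond 0. Psmd10 was at -0.0051 with quantile normalization, Psme3 at -0.0211 with array weights and Psma8 at -0.00072 by edgeR. With each library left out in turn the ranges were -0.0262 to 0.17 for Psma6, -0.12 to 0.22 for Psma8, -0.0296 to 0.19 for Psmb4, -0.14 to 0.0232 for Psmb5, -0.12 to 0.0188 for Psmb6, -0.0689 to 0.17 for Psmb7, -0.0479 to 0.17 for Psmc3, -0.10 to 0.18 for Psmc3ip, -0.0071 to 0.12 for Psmc6, -0.0016 to 0.16 for Psmd1, -0.0781 to 0.11 for Psmd10, -0.0125 to 0.19 for Psmd2, -0.0268 to 0.15 for Psmd4, -0.0295 to 0.13 for Psme2, -0.0432 to 0.13 for Psme3, -0.0028 to 0.20 for Psmg2 and -0.0079 to 0.20 for Psmg3. Depth limits Psma8 and Psme2b most, with 72 reads at the fewest.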
